A study of Bos taurus with 8 samples.

Results

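Heat shock proteins, their J-domain (DNAJ) partners and the factors that control them were described across 8 two-colour arrays of day 6 cattle embryos. A probe belonged to the set when its gene symbol began with HSPA, HSPD, HSPE, HSPH, HSP90 or DNAJ, or with HSPB followed by a digit. Symbols BAG1 to BAG6, HSF1, HSF2, STIP1 and METTL21A were added, and the endoplasmic reticulum genes HSPA5, HSP90B1, HSPA13, DNAJB9, DNAJB11, DNAJC3 and DNAJC10 were left out. Of 43794 probes on the array 110 qualified, for 70 of 15215 named genes, and 5 of the 110 did so through a current symbol that replaces an older name on the array (METTL21A and BAG6). All were chosen by gene name, with earlier results of these data known. Each array carried RNA of both breeds: Holstein, whose embryos the labels call cryotolerant, and Jersey, whose embryos the labels call poor performers once frozen. All donors were treated alike, with aspiration of follicles above 8 mm, FSH adding up to 400 mg, doses of 500 µg of an analogue of prostaglandin F2α late in that course, and insemination with semen pools. Uterine flushing on day 6 gave the embryos, and their RNA went through 2 rounds of T7 amplification. Holstein RNA was in Cy5 on 4 arrays and Jersey RNA on the other 4. The arrays were joined into 4 dye-swap pairs, numbered 1 to 4, by how alike their residuals were, since the labels do not give the pairs. Of these, pairs 1 and 2 lay on the first slide and pairs 3 and 4 on the second. The labels leave the embryos and donors behind a pair uncounted, and the spread between pairs may be technical.

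Heat shock proteins bind unfolded protein chains and keep them from clumping. HSP70 works in cycles of ATP hydrolysis that J-domain proteins start and that nucleotide exchange factors of the BAG and HSP110 families complete. STIP1 hands clients from HSP70 to HSP90, small heat shock proteins hold unfolding clients without ATP, and HSF1 and HSF2 switch on many of the genes. In mouse embryos HSP70 is among the first products of the embryonic genome.

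Median spot intensity ran from 171 to 265 in Cy5 and from 230 to 316 in Cy3. The share of probes above background was 41.7% to 63.2% for Cy5 and 42.8% to 80.8% for Cy3. The lowest of both came from the array of pair 4 with Holstein in Cy5. All 9 embryo markers had a kept probe, among them POU5F1, NANOG, CDX2 and KRT8. The female-specific RNA XIST stood at a log2(Holstein / Jersey) of -2.93 ± 0.35 (SE, n = 4 pairs), so breed and embryo sex cannot be told apart. By pair XIST was at -3.22, -3.43, -3.52 and -1.56. Of the 110 probes 0 belonged to an X-linked gene, and an effect of embryo sex on genes of other chromosomes was not tested. The haemoglobin transcript HBG stood at -4.22 and -3.84 in pairs 1 and 2 and at 0.13 and 0.16 in pairs 3 and 4. Lists of erythrocyte, leukocyte, cumulus, uterine and sperm markers had medians of -0.37, -0.19, 0.057, 0.0054 and 0.22 over their kept probes. Embryos were measured in bulk, so fewer cells of a type and less RNA per cell cannot be told apart.

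The chaperone genes were split nearly evenly between the breeds. Of the 110 probes 92, for 61 genes, were bright enough to be tested, standing out from the negative controls in 1 breed or the other on 4 or more of 8 arrays. Of the 92, 49 (53.3%) had a mean above 0, the Holstein side, against 50.7% of all tested probes, and 43 had a mean below 0. In 22 of the 92 (23.9%) all 4 pairs held 1 direction, against 22% of all tested probes. A median log2 ratio of 0.0083 over the 92 stood against 0.0022 over all 32129 tested probes. By pair the median was -0.015, -0.046, 0.014 and 0.020. On pair means limma found 0 of the 92 past an adjusted p of 0.05, as it did for 0% of all probes. An unadjusted p under 0.05 was reached by 18 member probes (19.6%), against 14% of all tested probes. They were 9 on the Holstein side, where all probes gave 6.61%, and 9 on the Jersey side, where all probes gave 7.34%. An alternative limma fit used the 8 arrays themselves, modelled the dye and treated each pair as a random block. It gave every probe the same correlation within pairs, 0.31, so its SE can be too small where pairs differ widely. For the 2 HSPB1 probes its SE was 0.23 and 0.31, against 0.30 and 0.40 on pair means. This fit passed 6 of the 92 (6.52%) against 3.77% of 32033 probes. These 6 were 3 on the Holstein side (1.64% of all probes) and 3 on the Jersey side (2.14%). They belong to DNAJB5, BAG2, HSPB1, with both of its probes, STIP1, and METTL21A, by a probe kept through Holstein signal alone. Of the 92, 5 probes held 1 direction on 8 of 8 arrays, 2 of them on the Holstein side (2.3% of all probes) and 3 on the Jersey side (2.71%). That is 5.43% of the set against 5.01% of all probes. The filter kept 5 of the 92 through Holstein signal alone and 2 through Jersey signal alone.

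**Figure D1:**
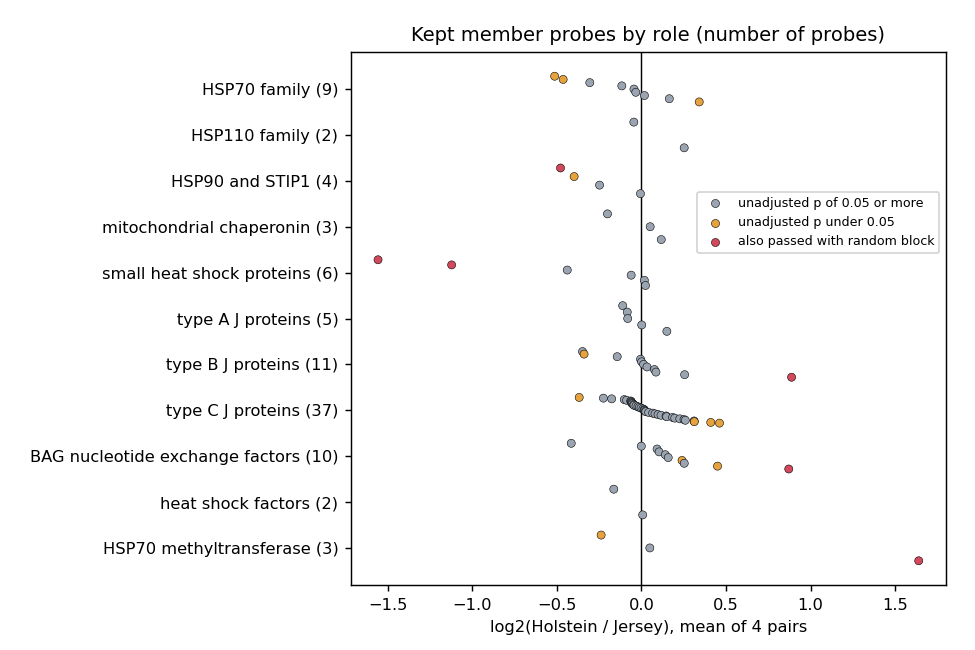
Each point is 1 of the 92 tested probes, placed on the horizontal axis by its mean log2(Holstein / Jersey) over 4 pairs and on the vertical axis by role. Orange points had an unadjusted p under 0.05, red points also passed with the random block, and the rest are grey. Most points lie close to 0, both HSPB1 probes sit at the far left at -1.12 and -1.56, and 1 METTL21A probe at the far right at 1.64.

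The 18 probes too dim to test included every probe of 9 genes. These were HSPA6, a stress-induced HSP70, the atypical HSP70 gene HSPA12A with 3 probes, HSPA4L, the small heat shock genes HSPB2 and HSPB6, and the J-domain genes DNAJB7, DNAJB13, DNAJC5B and DNAJC5G. None of these 9 was above background on over 3 arrays in either breed, so neither a level nor a ratio is given for them.

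Among the small heat shock proteins, HSPB1 had the lowest ratios of the whole set. HSPB1 encodes HSP27, which holds unfolding clients and binds actin filaments. Probe EMBV3_00307 had pair values of -0.90, -2.15, -0.31 and -1.12. Its second probe, EMBV3_38354, had -1.40, -2.82, -0.29 and -1.72. Both probes put all 4 pairs on the Jersey side, furthest in pair 2 and least in pair 3. Their means were -1.12 ± 0.30 and -1.56 ± 0.40, or 2.18-fold and 2.94-fold more signal in Jersey, with limma adjusted p of 0.216 and 0.210 on pair means and 0.0288 and 0.0258 with the random block. Across the alternatives these ran from 0.0234 to 0.431 and from 0.0211 to 0.435. Here and for the probes below, the low end came from a fit of the 8 arrays without a block. That fit takes both arrays of a pair as separate replicates. On single arrays EMBV3_00307 ran from -2.39 to -0.22, all below 0. EMBV3_38354 ran from -3.06 to 0.13 and was above 0 on a single array, that of pair 3 with Holstein in Cy5. Both probes were above background in both breeds on 8 of 8 arrays, with normalised log2 levels of 11.28 ± 0.54 in Holstein and 12.40 ± 0.44 in Jersey for the first (SD, n = 8 arrays). Without pair 2 the means were -0.78 and -1.14. On the first slide, where HBG stood far on the Jersey side, HSPB1 averaged -1.53 and -2.11. On the second, where HBG was near 0, HSPB1 averaged -0.72 and -1.005. The erythrocyte markers HBB and HBA were also lower on the first slide (-2.02 and -0.96) than on the second (0.017 and -0.24). ALAS2 went the other way (0.057 and -1.30), and AHSP, GYPC and SLC4A1 differed little between slides. The slide differences of HSPB1 had adjusted p of 0.784 and 0.764, and the part of blood cell RNA in the HSPB1 ratios was not tested. The probes share their arrays, so they are not replicates.

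HSPB3, a small heat shock protein best known from muscle, followed a similar order across pairs, at -0.29, -1.15, 0.34 and -0.65. Pair 3 lay on the Holstein side, and its mean of -0.44 ± 0.24 had an adjusted p of 0.515. HSPB8, which works with BAG3, had 2 tested probes at 0.017 and -0.060. HSPB9 stood at 0.024. Of 6 tested probes in the family 4 were below 0, and the median was -0.25.

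The stress-inducible HSP70 genes HSPA1A and HSPA1B lay on the Jersey side. HSPA1A (EMBV3_40040, chromosome 23) had pair values of -0.51, -0.15, -1.02 and -0.38, and all 8 arrays were below 0, from -1.33 to -0.024. Its mean was -0.51 ± 0.15, or 1.43-fold, with an adjusted p of 0.243 on pair means and 0.0738 with the random block. Across the alternatives the adjusted p ran from 0.0459, in the fit without a block, to 0.486. The probe named HSPA1B on the array (EMBV3_04386) had -0.20, -0.063, -1.02 and -0.57, a mean of -0.46 ± 0.17 (adjusted p = 0.334), and -0.28 without pair 3. Pair 3 was the lowest for both. RefSeq lists HSPA1B as another name of HSPA1A in cattle, the human pair is almost identical in coding sequence, and the probe sequences were not used here, so both probes may read the same transcripts. For either probe Jersey exceeded background on 8 of 8 arrays and Holstein on 5.

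HSPA8, the constitutive cytosolic HSP70, had pair values of 0.15, 0.018, -0.041 and -0.052, split evenly around 0. Its mean was 0.018 ± 0.069 (adjusted p = 0.948), with log2 levels of 15.13 in Holstein and 15.12 in Jersey, and it was 0.20 when arrays were only centred on their median. Mitochondrial HSPA9 was at -0.033 ± 0.081, and at 0.12 with median centring alone. HSPA14, which in human cells sits on the ribosome with DNAJC2, had 0.22, 0.37, 0.065 and 0.71. All 4 pairs were on the Holstein side, the mean was 0.34 ± 0.12 (adjusted p = 0.312), and it was 0.22 without pair 4. Its arrays with Holstein in Cy5 averaged 0.635 and those with Jersey in Cy5 0.049. DNAJC2 itself was at 0.20 ± 0.14, with pair 1 at -0.21 and the others above 0. HSPA1L and HSPA2, both rich in testis, were near background: HSPA1L stood at 0.17 ± 0.072, while HSPA2 was at -0.31 ± 0.18 and -0.044 ± 0.067 by its 2 probes. Without pair 2 the first of these was at -0.093. HSPA12B, known from endothelium, was at -0.12 ± 0.060, with 4 of 4 pairs below 0. Of the HSP110 genes, which exchange nucleotide on HSP70, HSPA4 was at -0.045 ± 0.12, and at 0.068 with median centring alone. HSPH1 swung from 0.88 and 0.83 in pairs 1 and 2 to 0.20 in pair 3 and -0.89 in pair 4, for a mean of 0.25 ± 0.32. The slide difference of HSPH1 had an adjusted p of 0.318 and was not past the threshold.

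STIP1, the adaptor between HSP70 and HSP90, lay on the Jersey side by both of its probes. Probe EMBV3_12078 had pair values of -0.50, -0.20, -0.35 and -0.55. Probe EMBV3_34778 had -0.77, -0.042, -0.59 and -0.51. The first was below 0 on 8 of 8 arrays and the second on 7 of 8, and pair 2 was nearest to 0 for both. Their means were -0.40 ± 0.084 and -0.48 ± 0.13 (adjusted p = 0.171 and 0.225 on pair means), and with the random block the second passed (0.0425) and the first did not (0.0678). Across the alternatives these ran from 0.0291 to 0.401 and from 0.0289 to 0.495, with both low ends from the fit without a block. Both had signal above background in both breeds on every array. STIP1 was 1.32-fold and 1.39-fold brighter in Jersey by these probes.

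Both HSP90 genes that STIP1 serves had ratios nearer to 0. HSP90AA1, the inducible form, had a mean of -0.0055 ± 0.065, with pairs from -0.087 to 0.080, and stood at 0.18 with median centring alone. Its median pixel reached the scanner ceiling of 65535 in the Holstein channel of 2 arrays, which can narrow a ratio. The constitutive HSP90AB1 was at -0.25 ± 0.16, with 0.21 in pair 1 and -0.43, -0.082 and -0.68 in the others. In the mitochondrial chaperonin, a barrel of HSPD1 closed by a lid of HSPE1, HSPE1 had pair values of 0.011, -0.51, -0.063 and -0.24. Its mean of -0.20 ± 0.11 was -0.098 without pair 2 and -0.054 with median centring alone. HSPD1 was at 0.052 ± 0.15 and 0.12 ± 0.11 by its 2 probes.

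J-domain proteins, the largest family, had 53 tested probes for 33 genes, of which 30 were above 0 and 23 below, with a median of 0.013. On the Holstein side 4 had an unadjusted p under 0.05, where all tested probes gave 6.61%, and on the Jersey side 2, where all gave 7.34%. Type A members, close relatives of bacterial DnaJ, were near 0. DNAJA2 was at -0.081 ± 0.13 (0.063 with median centring alone) and DNAJA4 at -0.11 ± 0.072. Mitochondrial DNAJA3 had 3 probes at -0.084, 0.0020 and 0.15, and the last of them ran from -0.72 in pair 1 to 1.17 in pair 3.

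Of the type B members, DNAJB5 had the highest ratio among J-domain genes. DNAJB5 is a cytosolic and nuclear partner of HSP70. Its single probe (EMBV3_00987, chromosome 8) had pair values of 0.22, 1.71, 1.09 and 0.53, and all 8 arrays lay above 0, from 0.20 to 1.92. The mean was 0.89 ± 0.25, or 1.85-fold, with an adjusted p of 0.235 on pair means, 0.0463 with the random block and between 0.0339 and 0.510 across the alternatives. The ratio was 0.61 without pair 2 and 1.11 without pair 1.

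DNAJB1, the heat-induced partner of HSP70, had 3 probes at -0.34 ± 0.089, -0.14 ± 0.11 and -0.0050 ± 0.15, the last of which was at 0.0021 in the authors' deposited table. The first, EMBV3_36018, had pair values of -0.17, -0.24, -0.57 and -0.36. Behind these averages the dye orientations differed: the 4 arrays with Holstein in Cy5 averaged -1.04 and the 4 with Jersey in Cy5 averaged 0.37. Pair 3 was the lowest for all 3 probes, at -0.57, -0.46 and -0.46. DNAJB6, which blocks protein aggregation, was at 0.013 ± 0.090. DNAJB12 and DNAJB14, 2 related proteins of the endoplasmic reticulum membrane, stood at -0.35 ± 0.21 and 0.26 ± 0.13. DNAJB12 was at 0.17 and 0.0030 in pairs 1 and 2 and at -0.96 and -0.61 in pairs 3 and 4, but the slide difference had an adjusted p of 0.501.

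**Figure D2:**
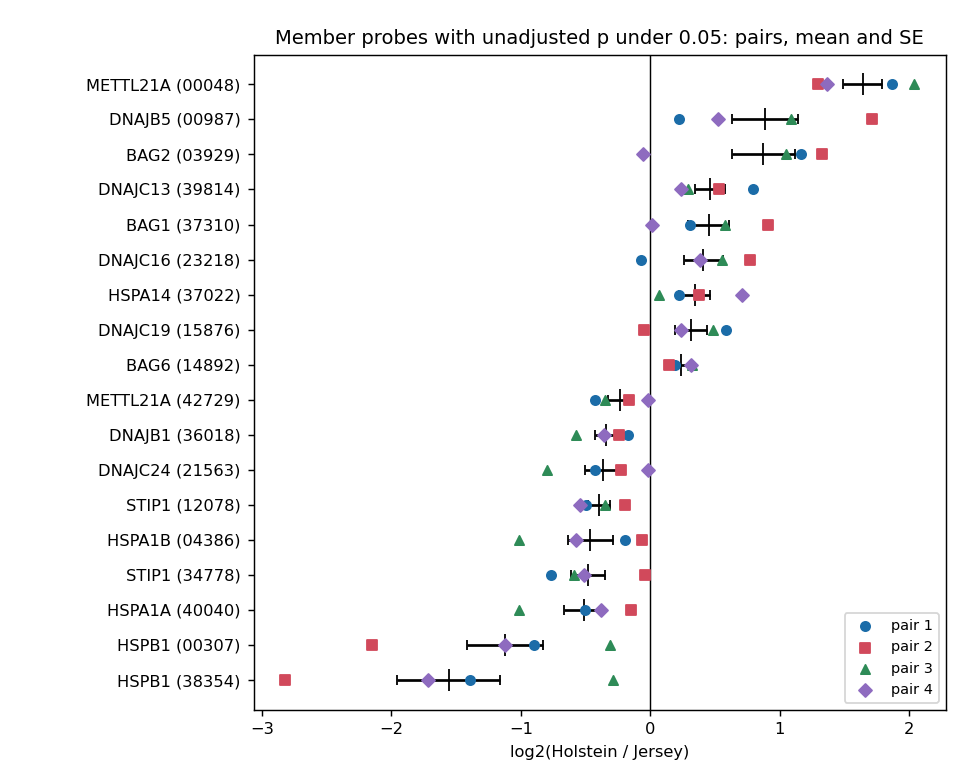
The 18 probes with an unadjusted p under 0.05 are listed by gene and the last 5 digits of the probe name. Symbols give log2(Holstein / Jersey) in each of 4 pairs, and the bar gives the mean with its moderated SE. In 15 of the 18 all 4 pairs lie on 1 side of 0, which selection by p on these same pairs favours. The HSPB1 and DNAJB5 points are the most widely spread.

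Type C members, which share little beyond the J domain, had 37 tested probes, 21 above 0 and 16 below. DNAJC13, an endosomal protein, had pair values of 0.80, 0.53, 0.29 and 0.24. All pairs lay on the Holstein side and the mean was 0.46 ± 0.11 (adjusted p = 0.201 on pair means and 0.0736 with the random block). The 4 arrays with Jersey in Cy5 averaged 0.0041, and the 4 with Holstein in Cy5 averaged 0.92. DNAJC16, of the endoplasmic reticulum, was at 0.41 ± 0.15 by 1 probe and 0.018 by another. DNAJC19, part of the mitochondrial import motor, was at 0.31 ± 0.12, with pair 2 at -0.048. DNAJC24, which serves the making of diphthamide on elongation factor 2, was at -0.37 ± 0.14 by 1 probe (-0.23 without pair 3) and -0.058 by another. The mitochondrial DNAJC30 was at 0.26 ± 0.11 and the auxilin DNAJC6 at 0.23 ± 0.090 and -0.012. Spliceosome-bound DNAJC8, histone chaperone DNAJC9 and DNAJC7 stood at -0.043, 0.017 and 0.043.

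DNAJC15, a J protein of the mitochondrial inner membrane that restrains respiration in mouse and human cells, had the 3 probes with the widest spread between pairs in the set. It was singled out after its values were seen. Its 5 probes moved alike. In pair 1 they ran from -0.079 to 0.52, in pair 2 from -0.66 to -0.0063, in pair 3 from -1.24 to -0.63 and in pair 4 from 1.13 to 2.07. Thus 5 of 5 probes were on the Holstein side in pair 4 and 5 of 5 on the Jersey side in pair 3. Both arrays of pair 4 showed it, at 0.38 to 2.07 and 1.21 to 2.27. The SD over pairs was 0.73 to 1.42, and between 0.283% and 3.45% of all tested probes had a larger one. Means over pairs were 0.066 to 0.31, each smaller than its SE, and the SE ran from 0.28 to 0.54.

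Nucleotide exchange factors of the BAG family had 10 tested probes for 6 genes, so some genes are counted more than once. Of these probes 8 were above 0, against 50.7% of all tested probes, and the median was 0.15. The filter kept 1 of the 10 through Holstein signal alone. Of the 10, 3 lay on the Holstein side with an unadjusted p under 0.05, against 6.61% of all tested probes. BAG2, which also restrains the ubiquitin ligase CHIP, had the highest ratio. Probe EMBV3_03929 had pair values of 1.16, 1.33, 1.05 and -0.055. Pairs 1 to 3 lay close together and pair 4 near 0. The mean was 0.87 ± 0.24, or 1.83-fold (adjusted p = 0.229 on pair means, 0.0359 with the random block and 0.0283 to 0.499 across the alternatives), and 1.18 without pair 4. The other 2 tested BAG2 probes were at 0.25 ± 0.10 and 0.10 ± 0.074 and depended on the dye. BAG1 was at 0.45 ± 0.16 by 1 probe, with 4 of 4 pairs above 0, and at -0.00049 by the other. Without pair 2 the first of these was at 0.30. BAG4 and BAG5 were at 0.093 and 0.16.

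BAG6, which guards hydrophobic membrane proteins, was at 0.24 ± 0.068 and 0.14 ± 0.14 by its 2 probes. The first was above 0 only with Jersey in Cy5, on 4 of 8 arrays. BAG3, the heat-induced member that feeds aggregates to autophagy, had -0.27, -0.030, -1.60 and 0.24. Pair 3 alone set its mean of -0.41 ± 0.31, which was -0.020 without that pair.

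Of the heat shock factors, HSF1, the main activator of heat shock genes, was at -0.16 ± 0.067, with 4 of 4 pairs below 0 (adjusted p = 0.376). Its arrays with Holstein in Cy5 averaged 0.15 and those with Jersey in Cy5 -0.47. HSF2 was at 0.0076 ± 0.10. Neither the HSF1 nor the HSF2 probe exceeded background in both breeds on every array.

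METTL21A, a methyltransferase that puts methyl groups on a lysine of HSP70 proteins, had 3 tested probes that differed among themselves. Probe EMBV3_00048 (chromosome 2) was kept through Holstein, whose signal was above background on 8 of 8 arrays, with a log2 level of 8.84 ± 0.19. Jersey signal exceeded background on 3 of 8, at 7.20 ± 0.31, so the size of the ratio is not fixed. A filter passed through Holstein alone favours ratios on the Holstein side, which the p values below do not allow for. It had pair values of 1.87, 1.29, 2.04 and 1.36. All 8 arrays were on the Holstein side, from 0.88 to 2.11. The mean was 1.64 ± 0.15 (limma adjusted p = 0.0738 on pair means, 0.00143 with the random block and 0.000804 to 0.293 across the alternatives). The other METTL21A probes did not share this ratio. EMBV3_42729, above background in both breeds on every array, had -0.43, -0.16, -0.35 and -0.017, for a mean of -0.24 ± 0.092 (adjusted p = 0.348). EMBV3_00212 was at 0.050 ± 0.063. The 3 probes spanned 1.88 on the log2 scale, the widest of the 21 genes with several tested probes. Probe positions on the transcript were not used here.

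**Figure D3:**
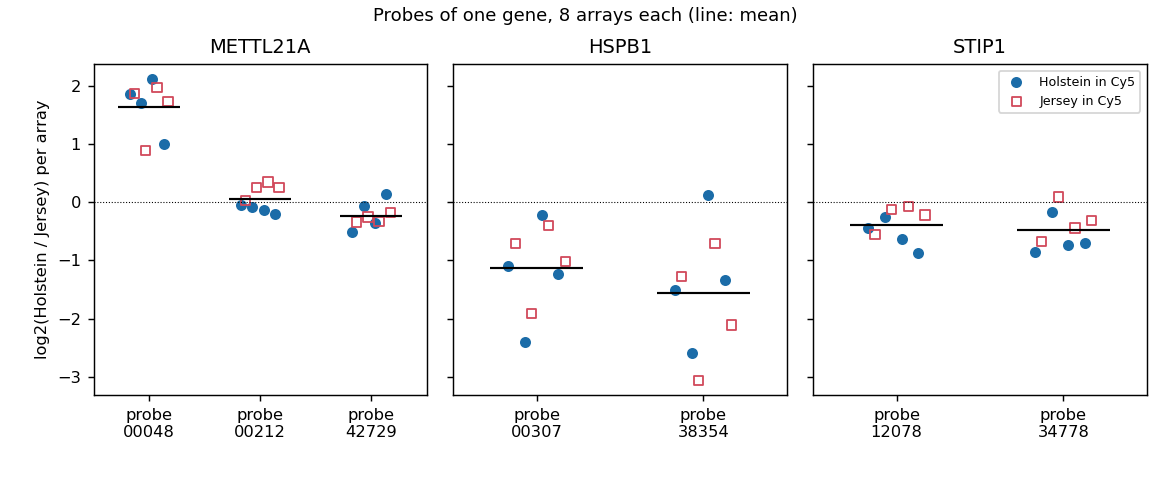
Points are log2(Holstein / Jersey) on single arrays, filled with Holstein in Cy5 and open with Jersey in Cy5, and the line is the mean of 8 arrays. The 3 METTL21A probes lie apart at 1.64, 0.050 and -0.24, while the 2 probes of HSPB1 and those of STIP1 lie together below 0.

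Other genes with several tested probes spanned less. Of the 21, 13 had all probes on 1 side and 8 on both, and 2 (METTL21A and BAG2) spanned over 0.5. These counts were not made for the other genes of the array, so they are not read as a trait of the set.

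A dye effect was called for 17 of the 92 probes (18.5%, against 27.2% of all tested probes) by the fit of 8 arrays at an adjusted p of 0.05. Apart from the DNAJB1, DNAJC13, BAG6, BAG2 and HSF1 probes named above, these were probes of HSPA1L, HSPD1, DNAJA3, DNAJB2, DNAJC4, DNAJC11, DNAJC15, DNAJC17, DNAJC27, HSF2 and METTL21A (EMBV3_00212). The HSPD1 probe EMBV3_25942 went from -0.93 with Holstein in Cy5 to 1.16 with Jersey in Cy5. The HSPB1, STIP1, DNAJB5 and HSPA1A probes and METTL21A EMBV3_00048 had no dye effect past the threshold. No slide difference was called: 0 of 92 passed an adjusted p of 0.05 in a limma fit with a slide term, against 0.0375% of all probes. An unadjusted p under 0.05 was reached there by 10 of 92 (10.9%), against 6.86%.

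Genes that heat induces did not follow a single order across pairs. This grouping was made after the values were seen and was not tested. In pair 3, HSPA1A, HSPA1B, BAG3 and the 3 DNAJB1 probes were each at their lowest, between -1.60 and -0.46. HSPB1, by contrast, was nearest to 0 in pair 3, and HSPH1 was lowest in pair 4. HSPB1 was furthest on the Jersey side in pair 2, where HSPA1A, HSPA1B and BAG3 stood at -0.15, -0.063 and -0.030.

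**Figure D4:**
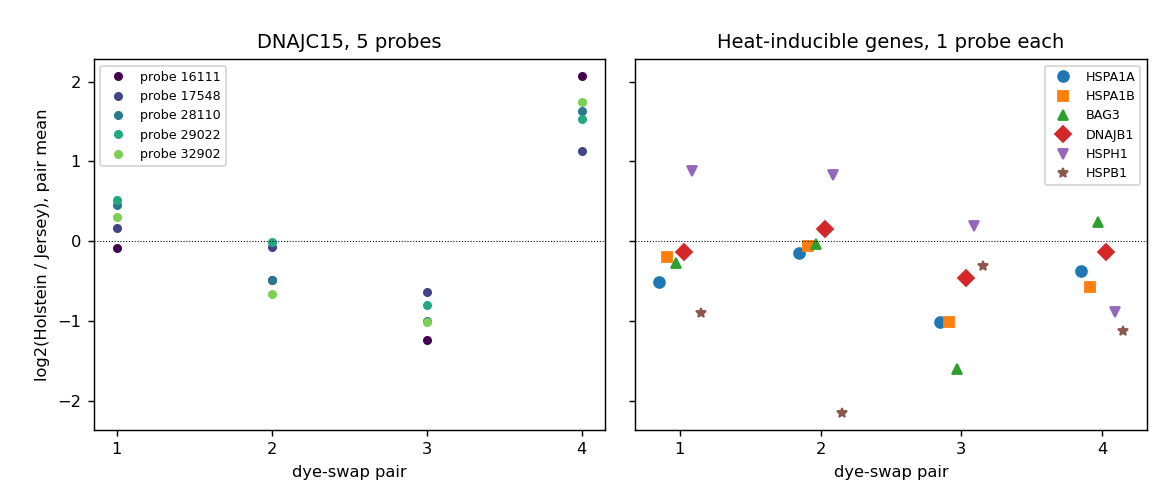
The vertical axis is log2(Holstein / Jersey) as the mean of a pair and the horizontal axis the 4 dye-swap pairs, with 1 symbol per probe of DNAJC15 (left) or per heat-inducible gene (right). DNAJC15 is between 1.13 and 2.07 in pair 4 and between -1.24 and -0.63 in pair 3, while BAG3, HSPA1A and HSPA1B are lowest in pair 3 and HSPB1 in pair 2.

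Partner chaperones outside the set, from a list of genes that work with HSP70 and HSP90 or fold proteins beside them, were also split between the breeds. Of 62 tested probes for 43 genes, 34 were above 0 and 28 below, with a median of 0.020. Of the 62, 7 in each direction had an unadjusted p under 0.05. All tested probes gave 6.61% on the Holstein side and 7.34% on the Jersey side. Limma passed 0 on pair means and 1 in each direction with the random block, against 1.64% and 2.14%. On the Jersey side the smallest p belonged to GRPEL1, the nucleotide exchange factor of mitochondrial HSP70, at -0.30 ± 0.062 and -0.36 ± 0.079 by its 2 probes. AHSA1, the activator of the HSP90 ATPase, was at -0.40 ± 0.097 by 1 probe and -0.16 by the other. The X-linked prefoldin subunit VBP1 stood at -0.66 ± 0.18 and passed with the random block (adjusted p = 0.0452). On the Holstein side they belonged to prefoldin PFDN2 (0.34 ± 0.089 and 0.20 ± 0.11), the HSP90 partner CHORDC1 and the chaperonin subunit CCT8 (0.24 ± 0.070). CHORDC1 was at 0.73 ± 0.21 by the probe that passed with the random block (adjusted p = 0.0456), while its other 2 tested probes were at -0.081 and 0.014.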

How the data were processed

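The deposited scanner files give the authors' raw spot intensity in Cy3 (532 nm) and Cy5 (635 nm) with local background, per the file headers. A deposited mark of the kind other, 0 or 1, showed 131 ignored spots, which were left out. A second source was the authors' deposited table of log2 ratios, whose scale and steps are not given in the sources used here, and whose sign, set against the scanner values, was the inverse of that used here on 8 of 8 arrays. Of the per-sample columns 0 were unassigned.

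R 4.3.3 and limma 3.58.1 were used. Foreground means were corrected by normexp (offset 50) and log ratios by loess within arrays, with control and ignored spots at weight 0. Levels are per channel after a further Aquantile step. Probes were tested where a breed's signal exceeded the mean plus 2 SD of 153 negative control spots on 4 of 8 arrays, with the breeds counted array by array. The platform annotation gave 1 symbol to 21790 probes, several to 0 and none to 22004. RefSeq (ARS-UCD2.0) knew 20068 of these symbols, 1644 more as synonyms, and 78 did not match. It gave names and chromosomes. Pairs are not in the labels: 24 matchings join arrays of opposite orientation, and that of highest summed residual correlation was taken (0.46 to 0.71 within its pairs, -0.36 to -0.019 elsewhere), so this contrast does not test the pairing. Pair means were tested against 0 with lmFit and eBayes, two-sided, with Benjamini-Hochberg adjustment over all tested probes. The random block fit used 1 consensus correlation, 0.31. The code was tested on simulated data. Errors are moderated SE over 4 pairs, and their number limits the precision.

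Members and lists were chosen with earlier results of these data known. Named with values are members with an unadjusted p under 0.05, core members, genes whose probes span over 0.5, members with a dye effect or a far pair, and the 3 partner genes of smallest p in each direction. The other members named were added after their values were seen. The background correction, normalization, filter on dim probes, treatment of replicates and slide, the variance prior, the value source, thresholds and probe averaging were each varied. Probe sequences were not used here.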

Additional observations from a re-analysis of the deposited data

Results flagged for a closer look

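In 2 of 92 tested probes 1 pair stood apart from the other 3 by more than Dixon's criterion for 4 values allows. Chance flags about 1 in 20 groups, so 2 of 92 is no excess. The criterion was not computed for the other probes of the array. A DNAJC27 probe (EMBV3_09990) was at -0.30 in pair 3 and between -0.044 and -0.017 in the others. The BAG5 probe (EMBV3_36286) was at -0.066 in pair 4 and between 0.21 and 0.27 in the others. Neither gene had an unadjusted p under 0.05.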

How the results depend on the processing

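The count of member probes past an adjusted p of 0.05 was 0 in every alternative except 3. With a replicate block, the pair as a random block over 8 arrays, it was 6 (6.52%, against 3.77% of all probes). Without a block, which takes both arrays of a pair as separate replicates, it was 10 (10.9% against 6.41%). At a threshold of 0.10 on pair means it was 1 (1.09% against 0.588%), METTL21A EMBV3_00048, a probe kept through Holstein signal alone. The count at an unadjusted p under 0.05, 18 on pair means, was 11 of 51 probes (21.6% against 19.8%) when both channels had to exceed background on all arrays. It was 10 of 61 (16.4% against 13.9%) with the probes of a gene averaged. It was 11 on the first slide alone (12% against 11.4%) and 11 on the second (12% against 7.54%), settings chosen after seeing the data. Without 1 pair it was 10 to 18, the lowest without pair 3 (10.9% against 10.2%). These unadjusted counts come from fewer probes or samples. The median of 0.0083 moved to -0.030 on the first slide alone. Of 284 values of the 18 probes under other settings, 283 kept their sign. The exception was METTL21A EMBV3_42729, at 0.48 as its gene's average. The 18 were picked by their p on the same arrays, so this count is no independent support for their direction. For the 15 with all 4 pairs on 1 side, leaving out a pair could not reverse the sign. Among other named probes, mostly near 0, 43 values changed sign, and the cause was not tested. With no background correction BAG1 EMBV3_34819 was at 0.00072, DNAJC17 EMBV3_38215 at -0.027 and DNAJC4 EMBV3_21413 at -0.018. Plain subtraction put those of DNAJC17 and DNAJC4 at -0.032 and -0.021, DNAJB2 EMBV3_05547 at -0.0023 and DNAJC27 EMBV3_21942 at 0.0041. Median centring gave BAG1 0.066, DNAJA2 0.063, DNAJC17 -0.012, DNAJC4 -0.0065, HSF2 -0.015, HSP90AA1 0.18, HSPA4 0.068 and HSPA9 0.12. The authors' deposited table gave BAG1 0.0048, DNAJB1 EMBV3_08588 0.0021, DNAJC17 -0.018, DNAJC4 -0.0057, HSP90AA1 0.051 and HSPA9 0.022. Averaged probes gave BAG1 0.22, DNAJA3 0.023, DNAJC17 -0.036 and DNAJC4 -0.010. Leaving out 1 pair in turn, DNAJA2 ran from -0.18 to 0.046, DNAJB1 EMBV3_08588 from -0.11 to 0.15, DNAJB6 from -0.045 to 0.075, HSPA8 from -0.025 to 0.041 and HSPD1 EMBV3_22617 from -0.10 to 0.18. HSF2 ran from -0.056 to 0.10, HSPA4 from -0.14 to 0.053, HSPA9 from -0.064 to 0.038 and HSP90AA1 from -0.034 to 0.022. BAG1 EMBV3_34819 ran from -0.026 to 0.042, DNAJC15 EMBV3_17548 from -0.18 to 0.40, DNAJC17 EMBV3_38215 from -0.021 to 0.045 and DNAJC4 EMBV3_21413 from -0.032 to 0.079. Signal over background limits METTL21A EMBV3_00048 in Jersey and HSPA1A and HSPA1B in Holstein.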
